A study of Mus musculus with 21 samples.

Results

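The genes of ubiquitin activation, conjugation and removal were described in the cerebral cortex of mice 24 h after high-frequency head impact (HF-HI), a model of repeated mild blows to the head, and after a sham procedure. A gene was counted as a member when its Ensembl identifier mapped to a mouse symbol of the Uba, Ube, Usp, Uch or Otu families or to that of a ubiquitin precursor such as Ubb. This rule, which uses names only and no measured value, found 73 of the 5544 genes in the table. They comprise 3 ubiquitin precursors, 5 E1 activating enzymes, 24 E2 conjugating enzymes, 5 ligases of the Ube3 and Ube4 families, 28 ubiquitin-specific proteases (USP), 1 ubiquitin C-terminal hydrolase (UCH), 6 OTU-domain deubiquitinases, and Usp6nl, whose symbol meets the rule although its product acts on Rab GTPases. In the GENCODE annotation 140 genes meet the pattern, 124 of them protein-coding, and 51 of the protein-coding ones, among them Uba7, Ube2a, Ube2d1, Uchl3, Uchl5, Usp18 and Usp30, were not analysed here.

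The sham group holds 10 libraries and the HF-HI group 11, one library per mouse, all from male C57BL/6 mice aged 12 weeks. Both groups were anesthetized with isoflurane on each day of the procedure and handled alike, and the sham mice received no impact. RNA was taken from whole cortical homogenate, so a level reflects all cell types in the tissue. All values below are the deposited variance-stabilized values, on a log2 scale. A difference is the HF-HI mean minus the sham mean on that scale. For variance-stabilized values 1 unit is about a doubling, so fold values are approximate. The values are not divided by transcript length and are therefore compared between groups, not between genes.

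Ubiquitin is a small protein that cells attach to other proteins, most often to mark them for the proteasome, and also to steer receptors, vesicles and signaling complexes. An E1 enzyme activates ubiquitin, an E2 enzyme carries it, an E3 ligase selects the substrate, and deubiquitinases cut it off again and release ubiquitin from its precursors. Related enzyme chains attach ubiquitin-like proteins such as SUMO and NEDD8. In neurons the pathway turns over synaptic proteins and receptors. UCHL1, one of the most abundant proteins of neurons, is also measured in blood as a marker of brain injury.

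Ubiquitin is made from precursors. Ubb codes for head-to-tail repeats of it, with 4 units in its 305 codons, while Rps27a (156 codons) codes for 1 unit fused to a ribosomal protein. Rps27a lies outside the name rule and is given with the related genes. The first ubiquitin unit of each, 228 bases read from the GENCODE M21 transcripts of GRCm38, is printed because both genes code for an identical protein with different bases, which bears on how reads can be assigned to them. Capitals mark the bases that differ from Ubb.
Ubb, first unit: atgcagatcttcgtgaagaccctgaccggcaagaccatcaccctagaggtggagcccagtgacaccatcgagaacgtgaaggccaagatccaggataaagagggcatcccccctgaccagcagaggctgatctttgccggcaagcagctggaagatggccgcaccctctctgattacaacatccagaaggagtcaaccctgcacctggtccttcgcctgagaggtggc
Rps27a, first unit: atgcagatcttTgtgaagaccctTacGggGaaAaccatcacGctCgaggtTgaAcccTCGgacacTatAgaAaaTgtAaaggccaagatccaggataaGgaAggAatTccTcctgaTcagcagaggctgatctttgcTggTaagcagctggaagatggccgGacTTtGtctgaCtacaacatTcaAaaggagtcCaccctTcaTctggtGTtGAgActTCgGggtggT
The unit of Rps27a differs from that of Ubb at 44 bases (80.7% identity), and the longest run of bases they share is 20. Within Ubb the 4 units are 95.6% to 99.1% identical to each other. How the counting shared reads from such repeats was not tested, and the level of Ubb is uncertain to that degree.

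How many reads each library held is unknown. Its relative depth, read from the spacing of its values and scaled to the median of all 21, ran from 0.580 to 1.26 in sham and from 0.548 to 1.64 in HF-HI. The medians were 0.864 in sham and 1.17 in HF-HI, so depth also moved with the groups, though the ranges overlapped. The values leaned on exonic GC content in a way that moved with the groups. Per 10% of GC, a library's values changed by -0.11 ± 0.08 in sham (SD, n = 10) and by 0.10 ± 0.06 in HF-HI (SD, n = 11) relative to the mean of all libraries. Of the neuron markers checked, 8 of 8 were in the table, with a median difference of 0.15. Those called higher included Slc17a7 of glutamatergic neurons (0.89), the neuronal splicing factor Rbfox3 (0.83), Snap25 (0.15) and Syt1 (0.14), while Neurod6 (0.13) and the GABAergic markers Gad1 (-0.10) and Gad2 (-0.01) did not pass. The summed linear level of the 8 ran from 56678 to 67419 in sham and from 65521 to 76589 in HF-HI. Markers of other cell types were called higher too. They were Mbp of oligodendrocytes (0.39), Gfap (0.29) and Slc1a2 (0.07) of astrocytes, Flt1 of endothelium (0.28) and Csf1r of microglia (0.13). None of the 8 neuron, 5 astrocyte or 5 oligodendrocyte markers was lower except 1 astrocyte gene, Slc1a3 (-0.17). Ttr of the choroid plexus, which ranged widely in both groups, did not pass the test. In whole tissue, fewer cells of a type and less RNA per cell cannot be told apart. One library, HF-HI replicate 9, stood apart from its group. It held the highest or the lowest HF-HI value for 44 of the 73 members and for 51.7% of all genes, and without it the count of members called was again 25 higher and 30 lower.

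Of the 73 members, 25 were higher and 30 lower in HF-HI at an adjusted p under 0.05, and 18 did not pass (limma, moderated test, p adjusted by Benjamini-Hochberg over all 5544 genes). Over all genes 66.3% passed, 32.6% as higher and 33.6% as lower, against 75.3%, 34.2% and 41.1% of the members. The median difference of the members was -0.0040, beside -0.0086 for all genes, and their median absolute difference was 0.15, beside 0.16. These shares lie near those of the table, and the sections that follow give which enzymes moved, in which direction and by how much. The split of called members into higher and lower depends on scaling, since 18 members were higher and 36 lower with libraries centered on their medians and quantile normalization gave 19 and 32. Over all genes the share of higher among called genes went from 49.3% to 37.9% and 40.8% under these scalings.

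Large differences among the members were increases, as they mostly were over all genes. Of the 73 members, 4 rose by at least 0.5 and 0 fell by as much, where 5.74% of all genes rose and 0.234% fell by that margin. In 8 members, Uchl1, Ube2ql1, Ube2l3, Ube4b, Ube3b, Ube2h, Otud7b and Ube4a, all 11 HF-HI libraries were above all 10 sham libraries. No member had the reverse pattern. Over all genes 8.71% were separated upward and 4.76% downward.

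**Figure D1:**
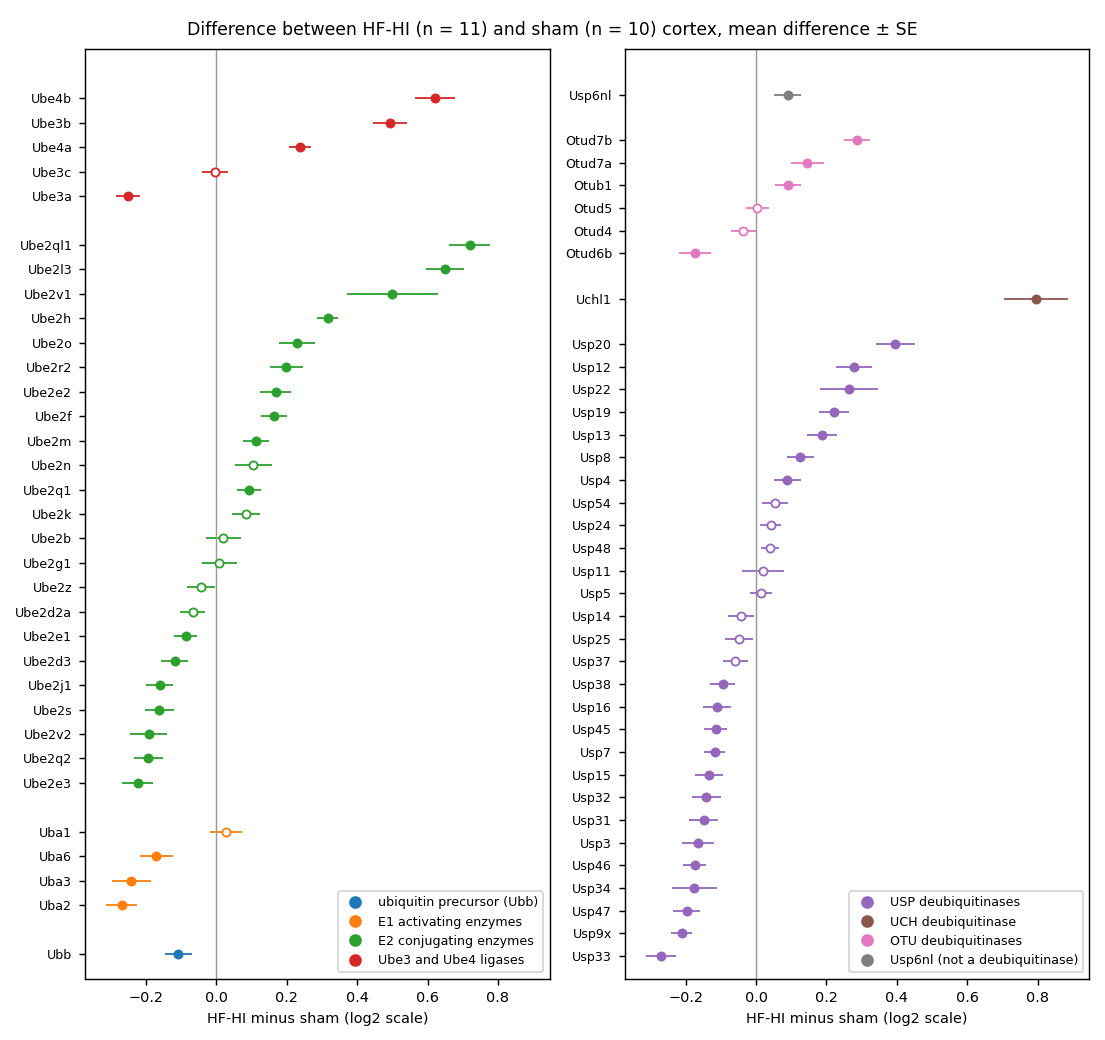
HF-HI minus sham difference (log2 scale, horizontal axis, mean difference ± SE) of 69 of the 73 genes by enzyme class, with filled points for genes past an adjusted p of 0.05 and open points for the rest. The points reach from -0.27 (Usp33) to 0.80 (Uchl1), Ubb lies below 0, and the 4 points above 0.5 are Uchl1, Ube2ql1, Ube2l3 and Ube4b.

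Ubb fell in HF-HI. This polyubiquitin gene ran from 13.37 to 13.61 (median 13.54) in sham and from 13.24 to 13.54 (median 13.44) in HF-HI. The groups overlapped over most of that range, with 3 HF-HI libraries below every sham library, and the difference was -0.11 (SE 0.0389, adjusted p = 0.0183). Exons of Ubb hold 55.6% GC. Of the 766 genes of the table within 2 percentage points of that, 58.2% were higher in HF-HI and 13.4% lower, with a median difference of 0.17, so Ubb moved against the run of genes of like composition. With the GC trend of each library removed, its difference was -0.28.

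Of the E1 activating enzymes, Uba2, Uba3 and Uba6 fell. An exception was Uba1, the main E1 for ubiquitin, whose values of 11.60 to 11.79 in sham and 11.40 to 11.85 in HF-HI gave a difference of 0.03 (adjusted p = 0.592), and the sign of that difference turned to -0.02 with libraries centered on their medians and to -0.0054 with quantile normalization. Uba2, the catalytic subunit of the SUMO E1, ran from 9.77 to 10.04 (median 9.97) in sham and from 9.45 to 9.82 (median 9.71) in HF-HI. All but 2 of the HF-HI libraries lay below every sham library, and the difference was -0.27 (SE 0.0446, adjusted p = 1.74e-05). Uba3, the catalytic subunit of the NEDD8 E1, ran from 9.64 to 10.16 (median 9.79) in sham and from 9.42 to 9.73 (median 9.58) in HF-HI, a difference of -0.24 (SE 0.0550, adjusted p = 5.53e-04). Uba6, a further E1 that can activate ubiquitin, fell by 0.17 (adjusted p = 0.00289). Uba6 has the lowest GC of the class (37.1%), and with the GC trend removed its difference was -0.01 and not past the threshold, while Uba2 (-0.22) and Uba3 (-0.11) stayed past it.

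The E2 conjugating enzymes split in both directions, with 10 of 24 higher, 8 lower and 6 not past the threshold, and a median difference of 0.05. Their shares of 41.7% higher and 33.3% lower lie near those of all genes (32.6% and 33.6%). The largest increase was in Ube2ql1, a member of the Ube2q family. Its values ran from 9.37 to 9.88 (median 9.68) in sham and from 10.22 to 10.53 (median 10.37) in HF-HI. The groups were apart with no library in between, and the difference was 0.72 (SE 0.0576, adjusted p = 9.02e-10), or 1.65-fold. Ube2ql1 has 60.2% exonic GC, and its difference with the GC trend removed was 0.42, still called. Ube2l3, the E2 that loads ubiquitin onto HECT and RBR ligases such as parkin, ran from 8.86 to 9.40 (median 9.18) in sham and from 9.70 to 9.91 (median 9.78) in HF-HI. Again no library of one group reached the other, and the difference was 0.65 (SE 0.0533, adjusted p = 1.28e-09), or 1.57-fold. Ube2l3 has 46.4% exonic GC, near the median of all genes (47.6%), and its difference with the GC trend removed was 0.67. Exons of Ube2l3 overlap those of Ydjc on the opposite strand.

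Ube2v1, a variant E2 that lacks the catalytic cysteine and partners Ube2n in building signaling chains, ran from 8.33 to 9.13 (median 8.85) in sham and from 8.27 to 9.55 (median 9.39) in HF-HI. In 9 HF-HI libraries it was above every sham library, while in HF-HI replicate 9 it was below every sham library. The difference was 0.50 (SE 0.129, adjusted p = 0.00172), and 0.60 without that library. The gene Gm20431 shares exons with Ube2v1 on the same strand, so the level of Ube2v1 is uncertain. Ube2h, the E2 of the CTLH ligase complex, rose by 0.32 (SE 0.0288, adjusted p = 5.88e-09), from 9.94 to 10.11 in sham to 10.25 to 10.44 in HF-HI. Ube2o, a large enzyme with both E2 and E3 activity, ran from 9.90 to 10.35 in sham and from 10.17 to 10.52 in HF-HI and rose by 0.23 (adjusted p = 4.71e-04), and this difference was -0.01 with the GC trend removed.

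The E2 enzymes that fell did so by less. Ube2e3 fell by 0.22 (SE 0.0441, adjusted p = 1.25e-04), from a sham range of 9.82 to 10.14 to an HF-HI range of 9.66 to 9.92. Ube2q2, a relative of Ube2ql1, fell by 0.19 (adjusted p = 3.05e-04), and Ube2v2, the other variant partner of Ube2n, also fell by 0.19 (adjusted p = 0.00243). Ube2s, which extends ubiquitin chains with the anaphase-promoting complex, fell by 0.16 (adjusted p = 0.00121), and so did Ube2j1 of the endoplasmic reticulum, whose adjusted p was 0.00109. Among these, the decrease of Ube2v2 was -0.03 with the GC trend removed and no longer past the threshold.

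Both NEDD8 E2 enzymes rose, Ube2f by 0.16 (adjusted p = 4.81e-04) and Ube2m by 0.11 (adjusted p = 0.0102), but Ube2m, with 59.3% GC, lost its call under both other scalings and stood at -0.16 and was called lower with the GC trend removed, where Ube2f kept 0.16. Ube2n, the catalytic partner of the Ube2v enzymes, had a difference of 0.11 that did not pass the threshold (adjusted p = 0.0847), and it was called higher with the GC trend removed (0.21) and with relative depth as a covariate (0.15).

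**Figure D2:**
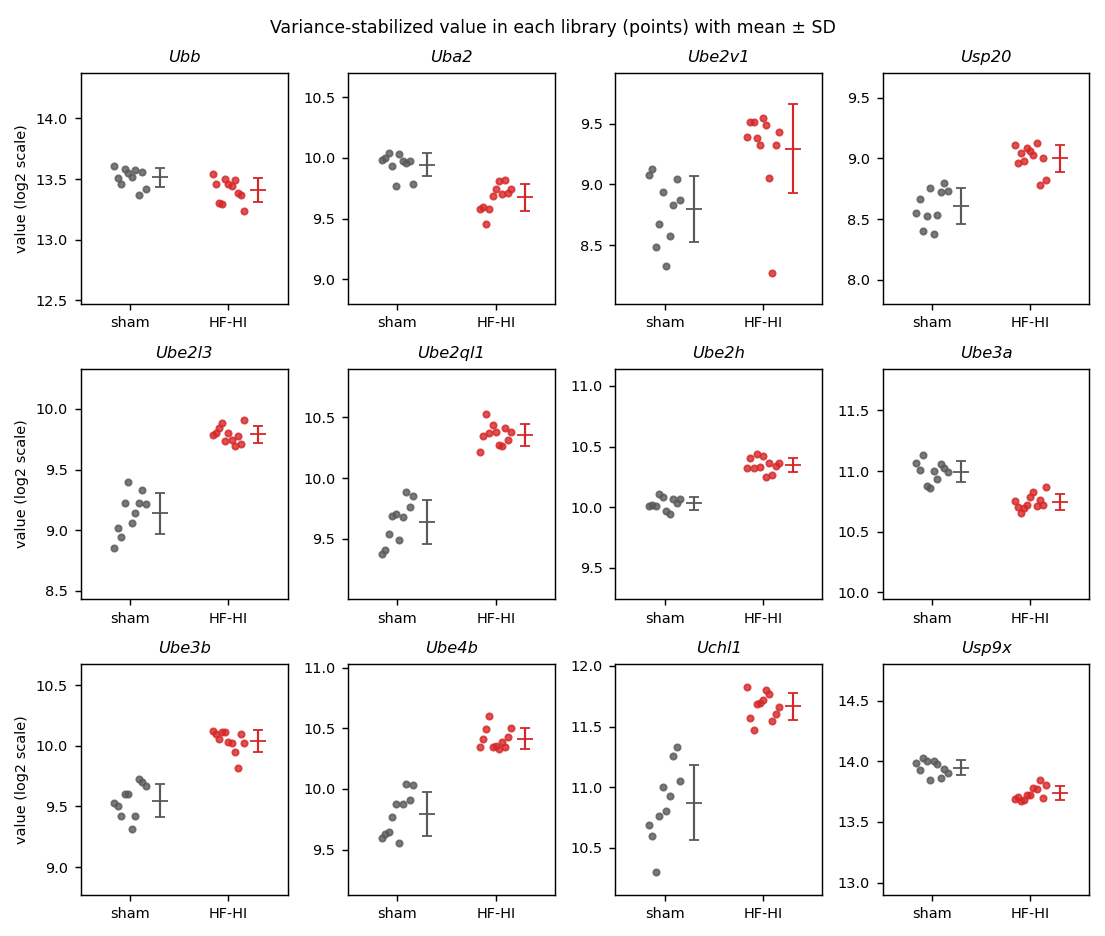
Values (log2 scale, vertical axis) of 12 member genes in each of the 10 sham and 11 HF-HI libraries, one point per library, with bars for the mean ± SD of each group. Uchl1, Ube2ql1, Ube2l3 and Ube4b show 2 separate clouds, with HF-HI above sham, whereas the groups overlap in Ubb, with HF-HI lower on average.

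Of the 5 ligases named Ube3 or Ube4, 3 rose, 1 fell and 1 did not pass, beside 32.6% of all genes higher and 33.6% lower. A difference of this small class from all genes was not tested. Ube4b, a U-box ligase that lengthens ubiquitin chains, ran from 9.55 to 10.04 (median 9.82) in sham and from 10.33 to 10.60 (median 10.38) in HF-HI. The groups did not overlap, and the difference was 0.62 (SE 0.0579, adjusted p = 7.98e-09), or 1.54-fold. Its relative Ube4a rose by 0.24 (SE 0.0310, adjusted p = 7.82e-07), from 9.36 to 9.58 in sham to 9.62 to 9.79 in HF-HI, also without overlap. Exons of both genes overlap those of opposite-strand genes, Ube4bos1 among them for Ube4b and Gm19121 for Ube4a. Ube3b, a HECT ligase, ran from 9.31 to 9.72 (median 9.57) in sham and from 9.82 to 10.12 (median 10.06) in HF-HI, and rose by 0.49 (SE 0.0487, adjusted p = 1.70e-08). Ube3a, the HECT ligase whose loss in neurons causes Angelman syndrome, went the other way. Its values ran from 10.86 to 11.13 (median 11.01) in sham and from 10.65 to 10.87 (median 10.72) in HF-HI, with 10 of 11 HF-HI libraries below every sham library, and the difference was -0.25 (SE 0.0343, adjusted p = 1.48e-06). Ube3a has the lowest exonic GC of all the members (34.6%), and with the GC trend removed its difference was -0.06 (adjusted p = 0.213). Its exons also overlap those of the antisense gene Snhg14. Ube3c had a difference of -0.0040 (adjusted p = 0.929). With the GC trend removed, Ube4b, Ube3b and Ube4a stayed higher, by 0.54, 0.30 and 0.29.

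Uchl1, the only UCH hydrolase in the table, had the largest difference of the 73 genes. It ran from 10.30 to 11.33 (median 10.87) in sham and from 11.47 to 11.82 (median 11.69) in HF-HI. Every HF-HI library exceeded every sham library, and the sham libraries were spread more widely (SD 0.308) than the HF-HI libraries (SD 0.111). The difference was 0.80 (SE 0.0910, adjusted p = 1.31e-07), or 1.74-fold, and 0.53 with the GC trend removed (59.2% exonic GC). Uchl1os, a gene on the opposite strand, overlaps its exons. Uchl1 is a gene of neurons. Of the 8 neuron markers, 5 were called higher and 0 lower, with differences from -0.10 (Gad1) to 0.89 (Slc17a7) and a median of 0.15. Their part in the result was not tested.

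A wider spread in sham was common over the whole table. The SD was larger in sham than in HF-HI for 68.1% of all genes. Among the members, the sham SD was the larger for 19 of the 25 that rose and for 16 of the 30 that fell. The share among all genes called higher was not computed. Whether members that rose differ from other genes in this respect was therefore not tested. The median SD of the members that rose was 0.128 in sham and 0.0789 in HF-HI.

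The 250 bases before the RefSeq start site of Uchl1, Ube2ql1 and Ubb (GRCm38.p6), printed 5′ to 3′ on the strand of the gene, show how unlike the upstream sequences are of the pair of enzymes that rose most and of a ubiquitin gene that fell. Capitals mark the motifs found in a search of both strands.
Uchl1, chr5:66675871-66676120, plus strand: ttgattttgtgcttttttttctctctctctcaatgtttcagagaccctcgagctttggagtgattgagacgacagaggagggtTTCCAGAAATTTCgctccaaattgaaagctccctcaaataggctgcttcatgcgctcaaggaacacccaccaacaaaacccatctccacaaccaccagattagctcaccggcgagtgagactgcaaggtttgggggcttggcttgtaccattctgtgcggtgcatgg
Ube2ql1, chr13:69739898-69740147, minus strand: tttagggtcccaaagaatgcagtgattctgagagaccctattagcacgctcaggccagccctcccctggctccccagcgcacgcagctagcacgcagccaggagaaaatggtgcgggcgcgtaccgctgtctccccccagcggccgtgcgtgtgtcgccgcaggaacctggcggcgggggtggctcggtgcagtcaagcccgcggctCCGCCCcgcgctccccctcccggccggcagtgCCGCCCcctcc
Ubb, chr11:62550921-62551170, plus strand: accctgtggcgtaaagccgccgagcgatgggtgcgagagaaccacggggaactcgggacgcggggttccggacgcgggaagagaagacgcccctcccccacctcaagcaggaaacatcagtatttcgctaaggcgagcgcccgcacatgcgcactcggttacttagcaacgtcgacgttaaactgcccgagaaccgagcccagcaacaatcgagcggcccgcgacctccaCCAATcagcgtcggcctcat
The window of Uchl1 holds 48.8% GC and the overlapping heat shock element cores TTCNNGAA and GAANNTTC, which 7.17% and 6.69% of all 32851 promoter windows hold, and no GC box. Its last 30 bases lie within the transcript as GENCODE places its start. The window of Ube2ql1 holds 70.4% GC and 2 GC boxes (GGGCGG, in 32.7% of all windows), here read on the opposite strand. The window of Ubb holds 62.8% GC and 1 CCAAT box, a motif that 33.8% of all windows hold. A window was found for 57 members, 72 windows in all. Of these, 54 held a GC box, 15 a CCAAT box, 4 a TATA box (TATAAA, 12.4% of all windows) and 2 a cAMP response element (TGACGTCA, 1.55%). The set of all windows was not limited to genes with values here. The median GC of the windows was nearly the same for members that rose (69.4%) and members that fell (69.6%), against 52.4% for all windows. A motif here is a match of letters only.

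Of the 28 ubiquitin-specific proteases, 13 were lower, 7 higher and 8 not past the threshold (46.4% and 25.0%, beside 33.6% and 32.6% of all genes), and the median difference was -0.05. After removal of the GC trend 8 were lower and 7 higher, with a median of 0.0016. Usp20, which removes ubiquitin from receptors and signaling proteins, rose most. It ran from 8.38 to 8.80 (median 8.61) in sham and from 8.78 to 9.13 (median 9.03) in HF-HI, with 10 of 11 HF-HI libraries above every sham library, a difference of 0.40 (SE 0.0552, adjusted p = 1.90e-06). Usp33, its closest relative, fell most. Usp33 ran from 11.26 to 11.59 (median 11.50) in sham and from 11.07 to 11.35 (median 11.18) in HF-HI, with 9 HF-HI libraries below every sham library, a difference of -0.27 (SE 0.0420, adjusted p = 7.80e-06).

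The same held for Usp12 and Usp46, related proteases that are activated by Wdr48. Usp12 ran from 9.36 to 9.81 (median 9.54) in sham and from 9.73 to 9.95 (median 9.80) in HF-HI and rose by 0.28 (SE 0.0518, adjusted p = 6.52e-05). Usp46, which deubiquitinates AMPA-type glutamate receptors, ran from 10.78 to 11.01 (median 10.89) in sham and from 10.63 to 10.84 (median 10.73) in HF-HI, a difference of -0.17 (SE 0.0323, adjusted p = 6.26e-05). Wdr48 itself, named after its values were seen, had a difference of 0.06. Exons of Usp46 overlap those of antisense genes, Usp46os1 among them.

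Other increases were in Usp22, the protease of the SAGA chromatin complex (0.26, adjusted p = 0.00712), Usp19, which is anchored in the endoplasmic reticulum (0.22, adjusted p = 1.15e-04), Usp13 (0.19, adjusted p = 5.73e-04) and Usp8, which acts on receptors at endosomes (0.13, adjusted p = 0.00609). Usp22 was lowest among the HF-HI libraries in replicate 9 (10.72 against 11.04 to 11.30 in the others), and its difference without that library was 0.31. Usp19 was at 0.05 and no longer called with the GC trend removed, while Usp13, Usp8 and Usp22 were still called. Usp8 lost its call with libraries centered on their medians (0.07) and with quantile normalization (0.09).

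Among the decreases, Usp9x, a large X-linked protease needed for neuronal development and synapses, ran from 13.84 to 14.03 (median 13.96) in sham and from 13.67 to 13.85 (median 13.72) in HF-HI. All but 1 of the HF-HI libraries were below every sham library, and the difference was -0.21 (SE 0.0290, adjusted p = 1.47e-06), or -0.08 with the GC trend removed, where it was still called. Usp47 fell by 0.20 (adjusted p = 9.44e-05, and -0.07 with the GC trend removed, still called), Usp34 by 0.18 (adjusted p = 0.0181) and Usp7, which controls the stability of Mdm2 and p53, by 0.12 (adjusted p = 0.00139). Usp34 was at -0.04 and not called with the GC trend removed. Usp14, the protease bound to the proteasome, had a difference of -0.04 (adjusted p = 0.331) that turned to 0.095 and was called higher with the GC trend removed, and Usp48 had a difference of 0.04 (adjusted p = 0.191).

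Of the 6 OTU deubiquitinases, 3 rose, 1 fell and 2 did not pass, where 32.6% of all genes rose and 33.6% fell. Whether the counts of so small a class differ from these shares was not tested. Otud7b (Cezanne), which trims ubiquitin chains and acts in NF-kB signaling, ran from 9.08 to 9.36 (median 9.25) in sham and from 9.42 to 9.67 (median 9.56) in HF-HI. The groups did not overlap, and the difference was 0.29 (SE 0.0368, adjusted p = 6.16e-07), the same with the GC trend removed. Its relative Otud7a, a brain-expressed enzyme, rose by 0.15 (adjusted p = 0.00981), but it has the highest exonic GC of all the members (62.0%) and was called lower, at -0.19, with the GC trend removed. Otub1, which also binds and restrains E2 enzymes such as Ube2n, rose by 0.09 (adjusted p = 0.0333), and this turned to -0.07 with the GC trend removed. Otud6b fell by 0.17 (adjusted p = 0.00215), and with the GC trend removed it was at -0.08 and not called. Otud4 (-0.04, adjusted p = 0.369) and Otud5 (0.0040, adjusted p = 0.924) did not pass. Usp6nl rose by 0.09 (adjusted p = 0.0396).

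Several pairs of close relatives went in opposite directions. These pairs, Ube2e2 among them, were picked after their values were seen, so their differences are a description with no test. Other relatives moved the same way, such as Ube4a (0.24) with Ube4b (0.62) and Ube2m (0.11) with Ube2f (0.16). Within each library, Usp20 minus Usp33 was -2.86 ± 0.254 in sham (SD, n = 10) and -2.19 ± 0.175 in HF-HI (SD, n = 11), with slight overlap. Usp12 minus Usp46 was -1.35 ± 0.198 in sham, at most -1.09, and -0.90 ± 0.075 in HF-HI, at least -1.03, with no overlap. Ube2v1 minus Ube2v2 was -1.74 ± 0.391 in sham and -1.05 ± 0.452 in HF-HI, where replicate 9 again fell among the sham libraries. Ube2e2 minus Ube2e3 was -0.99 ± 0.226 in sham and -0.59 ± 0.091 in HF-HI. In each of the 4 pairs the member that rose has the higher exonic GC, 54.6% against 42.2% for Usp20 and Usp33, 49.3% against 43.5% for Usp12 and Usp46, 54.1% against 37.2% for Ube2v1 and Ube2v2, and 47.2% against 43.7% for Ube2e2 and Ube2e3. With the GC trend removed, both members kept their direction and call for Usp20 (0.24) and Usp33 (-0.17), Usp12 (0.24) and Usp46 (-0.10), and Ube2e2 (0.17) and Ube2e3 (-0.16), while of the Ube2v pair only Ube2v1 (0.36) stayed called.

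**Figure D3:**
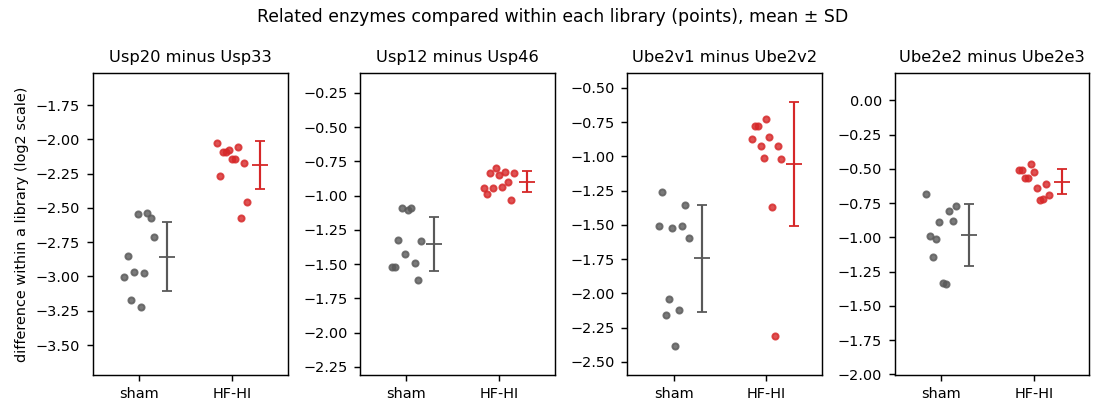
Value of one enzyme minus that of a close relative in the same library (log2 scale, vertical axis) in 10 sham and 11 HF-HI libraries, for 4 pairs, with one point per library and bars for mean ± SD. The HF-HI points lie higher in each panel, without overlap for Usp12 minus Usp46, and a lone HF-HI point near -2.31 for Ube2v1 minus Ube2v2 is replicate 9.

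Exonic GC content and the difference went together across the 73 members, as across the table. Spearman's rho between them was 0.559 over the 73 members, 0.752 over the 28 USP genes and 0.480 over 5539 genes, each a description across genes that share the same 21 libraries. The median GC was 51.2% in members that rose and 43.6% in members that fell, and 46.4% over all members. With the trend of each library on GC removed, 23 members were higher and 22 lower, where 29.2% and 31.0% of all genes were called in these directions, 60.2% in all. Of the 25 members that rose, 19 were again called higher and 2 (Ube2m and Otud7a) were called lower, and of the 30 that fell, 17 were again called lower. By class, the E2 enzymes then stood at 10 higher and 7 lower, the USP genes at 7 and 8, the OTU genes at 1 and 2, against 3 and 1 before, and the ligases at 3 and 0. Whether the GC trend comes from the tissue or from the libraries cannot be told apart in this design, since it moves with the groups.

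**Figure D4:**
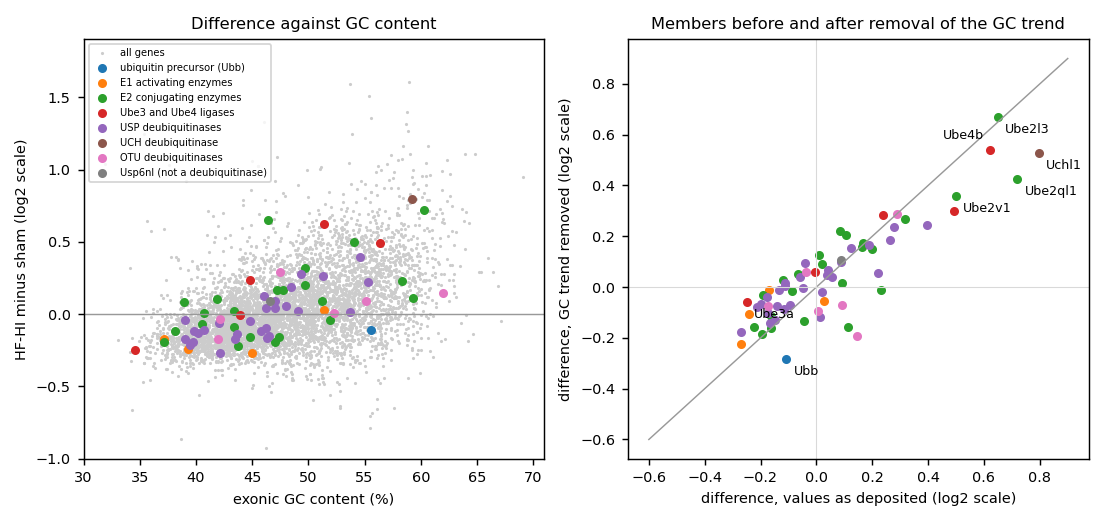
Left, HF-HI minus sham difference (log2 scale) against exonic GC content (%) for all genes in grey and 69 members in color by class, with 6 genes of the table outside the plotted range. Right, the difference of each of these members as deposited against that with the GC trend removed, with a line of equality. Ube2l3 and Ube4b stay near the line while Ubb falls below it.

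Of 52 further genes of the pathway outside the name rule (ubiquitin-like proteins, their enzymes, other families of deubiquitinases and partners of deubiquitinases), 33 were in the table, and 22 of them fell, 1 rose and 10 did not pass (66.7% lower and 3.03% higher, beside 33.6% and 32.6% of all genes, median difference -0.15). Rps27a, the ubiquitin precursor fused to a protein of the small ribosomal subunit, ran from 10.37 to 10.75 (median 10.66) in sham and from 9.87 to 10.30 (median 10.05) in HF-HI. The groups did not overlap, and the difference was -0.54 (adjusted p = 1.02e-08). Nae1, the partner of Uba3 in the NEDD8 E1, fell by 0.27 (adjusted p = 4.28e-06), as Uba3 did, and was at -0.14 with the GC trend removed, still called. Cops5, the subunit of the COP9 signalosome that removes NEDD8 from cullins, fell by 0.29 (adjusted p = 1.45e-04). Sae1, the partner of Uba2 in the SUMO E1, was the gene that rose, by 0.20 (adjusted p = 0.00691), and it was no longer called with the GC trend removed (0.13, adjusted p = 0.0734). A further related gene was called higher when sham replicate 1, sham replicate 2 or HF-HI replicate 9 was left out, making 2, and 3 were higher without sham replicate 9. After removal of the GC trend, 14 of the 33 were lower and 2 higher (Senp7 and Birc6, named after their values were seen), where 31.0% and 29.2% of all genes were called in these directions.

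Close to the threshold, Usp4 (0.09, adjusted p = 0.0385) and Usp6nl lay just inside, and Ube2k (0.08, adjusted p = 0.0668) and Ube2n lay just outside, though both were called higher with the GC trend removed, Ube2k at 0.22 and Ube2n at 0.21. When each of the 21 libraries was left out in turn, Usp4 was called in 11 of the fits, Usp6nl in 12 and Otub1 in 15, and Ube2k in 2 and Ube2n in 1. Every other called member was called in all 21.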

How the data were processed

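Stranded total RNA libraries were made from cortex, one per mouse, for 10 sham and 11 HF-HI mice. The authors aligned reads to mm10 with STAR, counted them per transcript with eXpress and normalized them with DESeq2, and the deposited values are variance-stabilized, on a log2 scale, for 5544 Ensembl genes. Tool versions, the gene annotation and whether counting used strand are not given in the sources used here. Genes that overlap another on the opposite strand (21 members) or the same strand (4 members) are therefore uncertain, as are genes that share sequence. Per-transcript counting divides shared reads. Among the 21 are also Ube2s, Usp14, Usp33 and Usp34, whose overlap is not given beside their values.

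Symbols, positions and exonic GC came from GENCODE M21 (GRCm38, the assembly of mm10), which gave a symbol for 5541 genes and a GC content for 5539. Promoter windows came from RefSeq (GRCm38.p6). Groups were set from the labels. All genes were fitted with limma 3.58.1 in R 4.3.3 (lmFit, eBayes with a mean-variance trend, no covariates, two-sided, Benjamini-Hochberg adjustment over the table, threshold 0.05). The p-values set each difference against the spread between these libraries. Levels were summed with numpy 2.4.6 and pandas 2.3.3 in Python 3.11.15 and drawn with matplotlib 3.10.9. GC trends were removed per library with a lowess curve of span 0.3 on deviations from the mean of all libraries, which would also remove a biological difference that follows GC. Relative depth came from the spacing of values where the linear level lies between 500 and 600. The fit was tested on simulated data. The precision follows from how much mice of one group differed, by an SD of 0.104 in the median gene.

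The members and lists were chosen with earlier results of these data known. Named are all members of a class of at most 10, the 5 largest called increases and decreases in a larger class, and a fixed list of genes of known role, of which Uchl5, Usp30, Ube2l6 and Usp18 were not analysed here. Among related genes the 3 largest called changes in each direction are named. Genes beside the threshold are given once. Of the members, 4 enter the counts but are not reported one by one here. The alternatives were an adjusted p of 0.1, a minimum difference of 0.25, the Wilcoxon rank-sum test, an eBayes fit with no trend, median centering, quantile normalization, removal of the lowest quartile of mean value, removal of the GC trend, the replicate number as a block with and without that removal, relative depth as a covariate, and each library left out in turn.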

Additional observations from a re-analysis of the deposited data

Results flagged for a closer look

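In Usp13, a deubiquitinase that rose in HF-HI, sham replicate 1 lay below the other sham libraries, at 8.35 against a next lowest value of 8.63. This gap takes up 0.618 of the whole range of the 10 sham libraries. A gap past the cut-off for such a flag arises by chance in about 1 in 20 groups, a rate for the cut-off and not for this gap. Over many genes, some such gaps would arise by chance. A single library also lay apart in other members, such as HF-HI replicate 9 in Ube2v1. Usp13 was called higher in each of the 21 fits that left out 1 library.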

How the results depend on the processing

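With each library left out in turn, 22 to 25 members were called higher and 30 to 31 lower, among them 10 to 11 and 8 to 9 E2 enzymes and 6 to 7 and 13 USP genes, and 1 to 3 related genes were called higher and 20 to 25 lower. A minimum difference of 0.25 left 11 members higher and 4 lower, with 4 and 0 E2 enzymes, 3 and 1 USP genes, and 0 and 4 related genes. With the GC trend removed, 8 USP genes were lower and 7 higher, and 2 related genes were higher and 14 lower. The labels do not state that the 10 replicate numbers both groups share pair the mice. Correlations of deviations between libraries of the same number ran from -0.31 to 0.36, and 0 sham libraries matched their own number best. This check cannot exclude a pairing of small effect. With the replicate number as a block, 22 members were higher and 29 lower, and of the 53 named genes 2 (Otub1 and Usp6nl) lost their call. With the block and GC removal together, 21 members were higher and 19 lower, with 7 USP and 14 related genes lower. An adjusted p under 0.1 called 3 related genes higher, and removal of the lowest quartile of mean value called 0 higher, where fewer genes were tested. The eBayes fit without a trend and the Wilcoxon rank-sum test each called 25 members higher and 30 lower.

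Among named genes that kept their sign, median centering ended the calls of Otub1, Otud7a, Ube2m, Usp6nl and Usp8 and called Otud4 and Usp14 lower, and quantile normalization ended those of Otub1, Ube2m, Usp6nl and Usp8. Relative depth as a covariate ended those of Otub1 and Usp34, and the block with GC removal those of Uba3, Usp22, Usp47 and Usp6nl beside those lost to GC removal alone.

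Some differences changed sign. With the GC trend removed, without and with the block, the values were -0.0714 and -0.0711 for Otub1, 0.0594 and 0.0616 for Otud4, -0.0927 and -0.0966 for Otud5, -0.192 and -0.192 for Otud7a, -0.0532 and -0.0495 for Uba1, -0.157 and -0.163 for Ube2m, -0.0119 and -0.00931 for Ube2o, 0.0585 and 0.0621 for Ube3c, and 0.0954 and 0.102 for Usp14, and Uba6 was at 0.00235 with both. Median centering put Otud5 at -0.0479, Uba1 at -0.0241 and Usp48 at -0.0132, quantile normalization put Otud5 at -0.0275 and Uba1 at -0.00543, and relative depth as a covariate put Otud5 at -0.0202 and Uba1 at -0.0168. With a library left out, Otud5 ran from -0.0105 to 0.0179 and Ube3c from -0.0216 to 0.0131. The cause of these changes was not tested. Of these genes, Otub1, Otud7a, Uba6, Ube2m and Ube2o were called with the values as deposited, and Otud5, Otud7a, Ube2m and Usp14 were called in the new direction with the GC trend removed. The depth in reads is unknown, so precision rests on the spread between mice.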
